A study of Mus musculus with 3 samples.

Results

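The genes described here encode 7 secreted proteins of the Nodal and activin branch of the TGF-beta family: the ligand Nodal, the related ligand Gdf3, the activin subunits Inhba and Inhbb, and the extracellular inhibitors Lefty1, Lefty2 and Cer1. They were chosen by gene symbol, each was read by 1 probe set with a single annotated symbol, and they make up 7 of 19057 measured genes. The set was picked because Lefty1, Lefty2 and Inhba differed strongly between repeats, so the differences between repeats are given for all 7 as a description, without a test.

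The samples are 3 repeats, called biological by the submitters, of the R1 line of mouse embryonic stem (ES) cells, derived from strain 129, whose total RNA was read on Affymetrix Mouse Gene 1.0 ST arrays. They form 1 group with no second genotype, treatment or time, and how the cultures were kept, with or without feeder cells, is not given in the sources used here. All results therefore concern 1 line. The labels do not say that the repeats came from separate cultures, so each SD and p-value measures only the spread between these 3 samples, which may be technical. All 11 measured pluripotency markers, among them Pou5f1, Sox2, Nanog and Sall4, gave signal above background on all 3 arrays, as did 67.3% of all genes. At the stricter cutoff given below 10 of the 11 did so, the exception being Dppa3, which was under it in repeat 1. Zfp42 had the largest range of the 11 markers, 0.59 log2 units.

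Nodal and activins signal through pairs of type I and type II serine/threonine kinase receptors that phosphorylate Smad2 and Smad3, which enter the nucleus with Smad4 and act there with DNA-binding partners such as Foxh1. Nodal also needs an EGF-CFC coreceptor, whereas activins, which are dimers of the Inhba and Inhbb products, do not. Lefty1 and Lefty2 are themselves induced by Nodal signalling and restrain it, the classical negative feedback of the early embryo, and in mouse ES cells this branch is active without being needed for self-renewal.

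Values are log2 probe set intensities. The background cutoff of each array was the 95th percentile of its 1173 genes for olfactory or vomeronasal receptors, at 4.72, 4.60 and 4.61 in repeats 1, 2 and 3. A stricter cutoff from 135 genes of other mostly silent families lay at 5.96, 5.84 and 5.83. Among genes above background on all 3 arrays the median difference between the highest and lowest repeat was 0.19 log2 units, which serves below as the usual spread. Repeat 2 stood apart from the others: of 36 genes that spanned more than 1 log2 unit, it was the farthest and higher in 29 and the farthest and lower in 3. Precision is limited by the small number of arrays, and intensities of different probe sets are not compared with each other.

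All 7 genes gave signal above background on all 3 arrays, as did 67.3% of all genes. At the stricter cutoff 5 of the 7 did so, against 44.8% of all genes. The exceptions were Cer1, which was below it on all 3 arrays, and Lefty1, which was below it in repeat 2. The genes split by how evenly they were read. Nodal, Gdf3, Inhbb and Cer1 spanned 0.17 to 0.35 log2 units over the repeats, Lefty2 spanned 0.98, and Inhba and Lefty1 spanned 1.92 and 1.97. The 2 of 7 genes above 1 log2 unit stand beside 0.281% of all genes above background, a share from which nothing is read because the set was picked for this spread. With repeat 2 left out, 0 of the 7 spanned more than 1 log2 unit, but repeats 1 and 3 were more than 0.5 log2 units apart for 2 of them, Inhba and Lefty1, as for 0.741% of all genes above background.

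**Figure D1:**
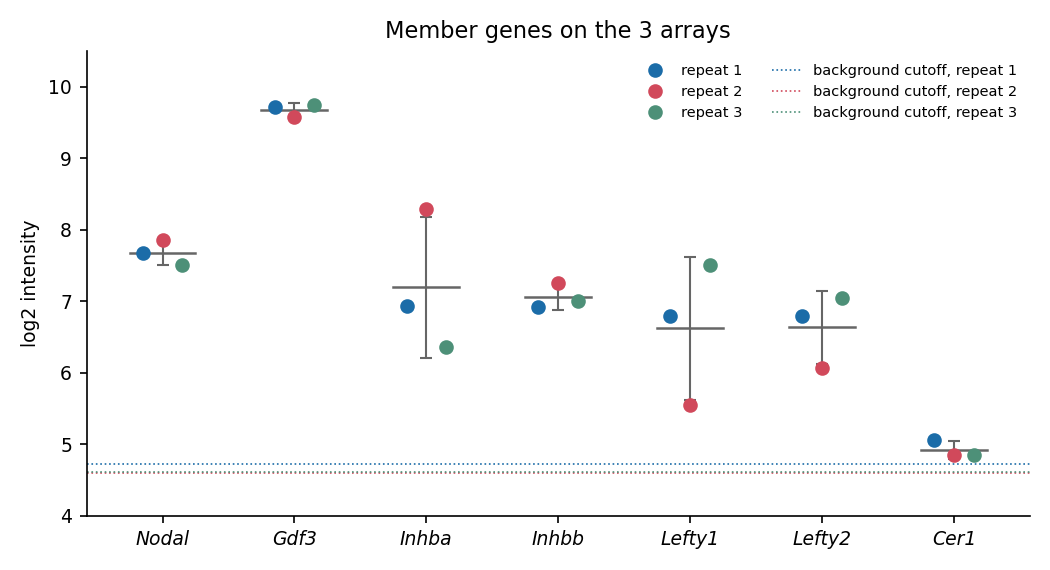
Log2 intensity (vertical axis) of the 7 genes in repeats 1, 2 and 3 (coloured points), with the mean and SD over the 3 repeats (grey line and bar) and the background cutoff of each array (dotted lines). Inhba was highest and Lefty1 and Lefty2 were lowest in repeat 2, Nodal, Gdf3 and Inhbb kept close together well above the cutoffs, and Cer1 lay just above them.

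Of the ligands, Nodal, which patterns the axes of the embryo and maintains the epiblast, read 7.67, 7.86 and 7.51 in repeats 1, 2 and 3, with a mean of 7.68 ± 0.18 (SD, n = 3). It was highest in repeat 2, by 0.27 log2 units over the mean of the other repeats, and lay at least 2.90 log2 units above the cutoff of its array. Gdf3, a ligand of the same family that is characteristic of pluripotent cells, read 9.71, 9.57 and 9.74, with a mean of 9.67 ± 0.090 (SD, n = 3). It was the most even of the 7 genes, and its lowest value, in repeat 2, was 0.15 log2 units under the mean of the other repeats.

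Inhba encodes the activin beta A subunit, whose homodimer is activin A. Its intensity was 122.4 in repeat 1, 311.8 in repeat 2 and 82.3 in repeat 3, or 6.94, 8.28 and 6.36 on the log2 scale, with a mean of 7.19 ± 0.99 (SD, n = 3). Repeat 2 was highest, 1.64 log2 units (3.11-fold) above the mean log2 value of the other repeats, and repeats 1 and 3 also lay apart, by 0.57 log2 units. Inhba was the only 1 of the 7 in which repeat 2 exceeded both other repeats by more than 0.5 log2 units, which 0.928% of all genes above background did. In these bulk samples, more cells that make a transcript and more transcript per cell cannot be told apart.

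Inhbb encodes the beta B subunit, which forms activin B, and with beta A activin AB. It read 6.91, 7.25 and 7.003 in repeats 1, 2 and 3, with a mean of 7.06 ± 0.18 (SD, n = 3). Repeat 2 was highest here as well, but by 0.29 log2 units, so both activin subunits had the same highest repeat and very different spreads. Inha, the inhibin alpha subunit, which turns a beta subunit into the antagonist inhibin, was above background on 0 of the 3 arrays, at 4.63, 4.38 and 4.59.

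The promoters of both activin subunits are shown because these genes code for subunits of the same kind of dimer and had ranges of 1.92 (Inhba) and 0.34 (Inhbb). RefSeq windows of GRCm38.p6, from 250 bases before to 50 bases after an annotated start, matched 4 of the 7 genes (Inhba, Inhbb, Nodal and Cer1). The window of Inhba is chr13:16011601-16011900 on the plus strand, and that of Inhbb is chr1:119422199-119422498 on the minus strand. Both are written 5′ to 3′ along the gene, and capitals mark a match to a searched motif.
Inhba: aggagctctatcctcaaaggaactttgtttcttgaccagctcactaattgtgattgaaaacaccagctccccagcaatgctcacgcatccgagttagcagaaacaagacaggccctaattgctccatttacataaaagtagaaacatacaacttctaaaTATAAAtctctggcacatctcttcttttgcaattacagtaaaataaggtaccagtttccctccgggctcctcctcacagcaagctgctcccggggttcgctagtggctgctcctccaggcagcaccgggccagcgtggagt
Inhbb: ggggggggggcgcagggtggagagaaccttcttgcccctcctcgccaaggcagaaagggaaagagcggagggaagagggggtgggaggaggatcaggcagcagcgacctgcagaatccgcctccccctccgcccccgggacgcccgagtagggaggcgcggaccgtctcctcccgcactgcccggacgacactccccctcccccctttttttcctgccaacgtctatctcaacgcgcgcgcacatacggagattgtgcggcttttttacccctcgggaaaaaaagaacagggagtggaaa
The motifs were searched on both strands, and none contains another. They were the FoxH1 consensus TGTNNATT (in 12.2% of all 32851 windows), the Smad half-site CAGAC (49.6%), the AP-1 site TGANTCA (7.81%), the cyclic AMP response element TGACGTCA (1.79%), the TEAD site GGAATG (14.7%) and the TATA box TATAAA (13.6%). Inhba held TATAAA, beginning 91 bases before the start used by the table, and none of the other motifs; the gene's annotated span in RefSeq begins upstream of this window. Inhbb and Nodal held none of the 6, and Cer1 held 1 CAGAC. Inhbb had 23 CG dinucleotides and 64.3% G and C, against 7 CG and 47.7% in Inhba, 5 CG in Nodal, 6 CG in Cer1 and a median of 7 CG over all windows. A match is a description of letters and not a site of binding.

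Of the inhibitors, Lefty1 and Lefty2 are close relatives that lie near one another on the same chromosome, bind Nodal and its coreceptors, and differ in the embryo in where they are expressed. The intensity of Lefty1 was 111.3 in repeat 1, 46.7 in repeat 2 and 182.4 in repeat 3, or 6.80, 5.54 and 7.51 on the log2 scale, with a mean of 6.62 ± 1.00 (SD, n = 3). Repeat 2 was lowest, 3.05-fold below the geometric mean of the others (a log2 difference of -1.61), and still 0.94 log2 units above the background cutoff. Repeats 1 and 3 were 0.71 log2 units apart, with repeat 3 higher.

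Lefty2 had the same order of repeats with a smaller spread. Its intensity was 111.02 in repeat 1, 66.6 in repeat 2 and 131.6 in repeat 3, or 6.79, 6.06 and 7.04 on the log2 scale, with a mean of 6.63 ± 0.51 (SD, n = 3). Repeat 2 was 1.81-fold below the geometric mean of the others (a log2 difference of -0.86), and repeats 1 and 3 lay 0.25 log2 units apart. The 2 Lefty genes were those of the 7 in which repeat 2 was more than 0.5 log2 units under both other repeats, as in 0.218% of all genes above background. Whether either probe set also reads RNA of the other gene was not tested, so the separate size of each difference is uncertain.

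Cer1, a secreted inhibitor of Nodal, BMP and Wnt made by the anterior visceral endoderm, read 5.06, 4.85 and 4.85 in repeats 1, 2 and 3, with a mean of 4.92 ± 0.12 (SD, n = 3). It lay 0.24 to 0.34 log2 units above the cutoffs, and it did not exceed the 99th percentile of the receptor genes on any array. Expression of Cer1 was therefore not shown by these arrays. At this level its range of 0.21 log2 units is not set against those of the Lefty genes.

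The rest of the pathway was read from a list of 51 symbols in 6 roles, of which 46 were measured. Of these, 38 were above background on all 3 arrays, beside 67.3% of all genes. At the stricter cutoff 27 were, beside 44.8% of all genes. The same shares stand beside the counts of each role and marker list below. No set of genes was tested against these shares. None of the 46 spanned more than 1 log2 unit. As only 0.281% of all genes above background did so, nothing is read from this. The median range was 0.23 over all 46, including those not above background on all 3 arrays. It was 0.19 over all genes above background. The limma test of variance beyond the trend, fitted over 13600 genes with Benjamini-Hochberg adjustment, called 22 genes (0.162%) at an adjusted p under 0.05. The test asks only whether a gene's variance exceeds the trend. It called 0 of the 42 pathway genes that entered it. With 0.162% called over all genes, nothing is read from this 0. An unadjusted p under 0.05 was found for 7 of the 42 and for 782 of the 13600 genes fitted. Over the 46 genes repeat 2 minus the mean of the others had a median of 0.046 log2 units, against 0.0064 for all genes above background.

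**Figure D2:**
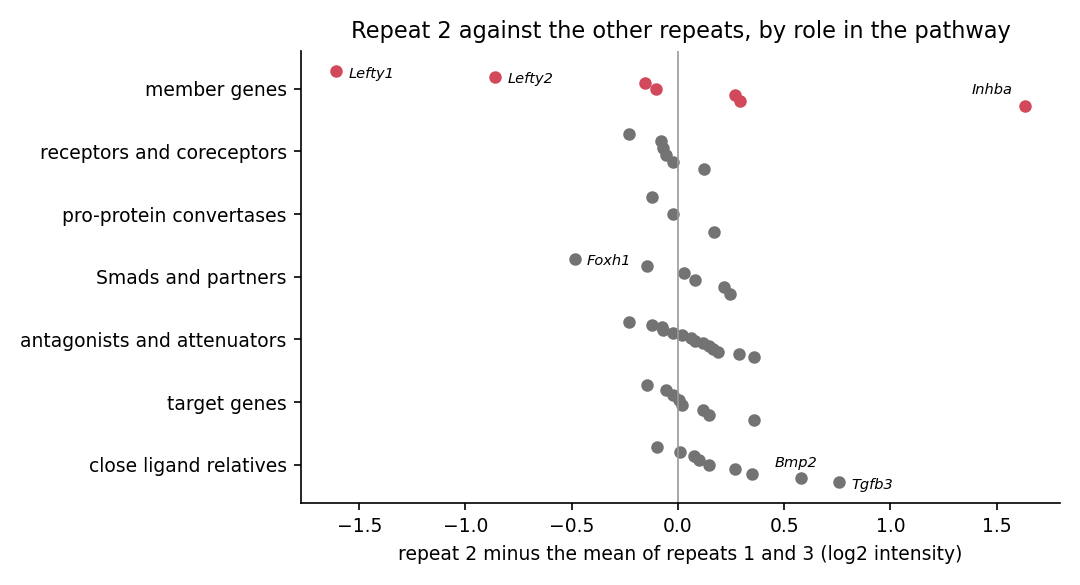
Repeat 2 minus the mean of repeats 1 and 3 (horizontal axis, log2 intensity) for the 7 genes (red) and the measured genes of 6 pathway roles (grey), each point 1 gene, spread vertically for legibility. Inhba lay at 1.64 and Lefty1 at -1.61, while Foxh1 (-0.49), Bmp2 (0.58) and Tgfb3 (0.76) were the farthest of the other genes.

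Among the receptors, 5 of 6 measured genes were above background. The type I receptor Acvr1b read 6.94 ± 0.17 and had the largest range of the group, 0.34, lowest in repeat 2. The type II receptors Acvr2a and Acvr2b read 7.17 ± 0.13 and 7.12 ± 0.062 (SD, n = 3). Acvr1c, the alternative type I receptor ALK7, was above background on 0 arrays, at 3.86 ± 0.032. The coreceptor Cfc1 read 5.001 ± 0.013 and was below the stricter cutoff on all 3 arrays. The other EGF-CFC coreceptor, Tdgf1, was not analysed here.

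Convertases cut Nodal and other family members from their precursors. Furin read 6.29 ± 0.13 and was above background on all 3 arrays, with the largest range of this group, 0.25. Pcsk6 (PACE4) read 7.93 ± 0.036 and was above background as well. Pcsk5 read 4.61 ± 0.11 and passed the cutoff on 1 array.

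All 6 Smad genes and partners were above background at both cutoffs. Smad2 and Smad3, the receptor substrates of this branch, read 8.04 ± 0.14 and 6.41 ± 0.17, and the shared Smad4 read 9.39 ± 0.024 (SD, n = 3). Foxh1, the forkhead partner through which Smad2 acts on Lefty and Nodal enhancers, had the largest range of the role, 0.68. It read 6.65, 6.36 and 7.05 in repeats 1, 2 and 3, the same order of repeats as Lefty1 and Lefty2. Its variance did not pass the test (limma, adjusted p = 0.54), so its spread was not shown to exceed that of genes at its level.

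Of 14 antagonists and attenuators 13 were above background, Inha being the exception. Follistatin, Fst, which binds activins, read 7.12 ± 0.13, and its relative Fstl3 read 5.84 ± 0.17 and passed the stricter cutoff on 1 array. The pseudoreceptor Bambi read 6.94 ± 0.030. Skil (SnoN), a corepressor of Smad target genes, had the largest range of this role, at 9.67, 9.31 and 9.19 in repeats 1, 2 and 3, highest in repeat 1. Its order of repeats therefore differed from those of Inhba and of the Lefty genes, and its variance did not pass (limma, adjusted p = 0.545).

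Of 8 measured target genes 7 were above background and 3 passed the stricter cutoff on all 3 arrays. Pmepa1, a feedback inhibitor induced by Smad2 and Smad3, read 8.44, 8.76 and 8.37 in repeats 1, 2 and 3. The primitive streak factors Eomes, Gsc and Mixl1 read 6.28 ± 0.17, 5.98 ± 0.14 and 5.41 ± 0.020 (SD, n = 3). They passed the stricter cutoff on 3, 2 and 0 arrays. Cyp26a1, a retinoic acid hydroxylase, had the largest range of the targets, 0.56, and passed the background cutoff on 2 arrays, at 4.45, 4.88 and 5.01. None of the 8 was lowest in repeat 2 by as much as Lefty2: their differences from the other repeats ran from -0.15 for Gsc to 0.36 for Pmepa1.

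Of 9 close ligand relatives 5 were above background, and 7 (77.8%) were highest in repeat 2, against 36.9% of all genes above background. These 7 include Mstn and Bmp2, which were not above background on all 3 arrays. As the list was chosen with earlier results of these data known, nothing is read from the 77.8%. Gdf11 read 5.29 ± 0.071, Tgfb1 7.36 ± 0.16 and Bmp4 8.77 ± 0.24 (SD, n = 3), with Gdf11 below the stricter cutoff on all 3 arrays. Myostatin, Mstn, and Inhbe were above background on 0 arrays (3.34 ± 0.070 and 4.34 ± 0.12), Inhbc on 2 (4.71 ± 0.074) and Bmp2 on 1 (4.39 ± 0.40). Bmp2 had the largest range of the role, 0.79, but as it was near background no difference is read from it. Tgfb3 read 4.99, 5.72 and 4.93 in repeats 1, 2 and 3, highest in repeat 2 as Inhba was, below the stricter cutoff on all 3 arrays, and its variance did not pass (limma, adjusted p = 0.38).

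Genes with the most similar pattern were sought among the other 12825 genes above background, by the Euclidean distance between log2 deviations from the gene mean over the 3 arrays. A gene with no difference between repeats would lie at 1.395 from Inhba, 1.41 from Lefty1 and 0.72 from Lefty2. Nearest to Inhba were the interferon-induced Ifi27 (distance 0.32), the galectin Lgals9 (0.44), the metalloproteinase inhibitor Timp3 (0.46), the interferon-induced Oas2 (0.48) and Arhgef26 (0.49). In all 5 repeat 2 was highest and repeat 3 lowest, as in Inhba, which follows from how they were picked. Ifi27 read 6.04, 7.17 and 5.70 in repeats 1, 2 and 3, and Timp3 read 6.94, 7.99 and 6.72. Ifi27 passed the stricter cutoff on 2 arrays and Oas2 on 1. The variance of Ifi27, Lgals9 and Timp3 passed the test (limma, adjusted p = 0.034, 0.043 and 0.034). That of Oas2 and Arhgef26 did not (limma, adjusted p = 0.058 and 0.063). As the 5 were picked for a spread like that of Inhba, nothing is read from these calls.

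Nearest to Lefty1 were Zbed3 (distance 0.65), Lefty2 (0.70), Chac1 (0.80), Bcar3 (0.80) and 5730507C01Rik (0.80). Zbed3, which codes for a zinc finger protein, read 6.09, 5.54 and 6.65 in repeats 1, 2 and 3, and Chac1, a glutathione-degrading enzyme induced in the unfolded protein response, read 6.35, 5.95 and 6.85. No gene came close to Lefty1, since even the nearest lay 0.65 away. In the other direction Lefty1 was in place 4903 of 12825 for Lefty2, because at 0.70 it lay hardly nearer than a gene with no difference. For Lefty2, whose range of 0.98 was under the limit of 1 used to choose genes for this search, the neighbours were looked up after the values were seen. They were much nearer: the primed epiblast ligand Fgf5 (distance 0.16), the de novo DNA methyltransferase Dnmt3b (0.16), Myrf (0.18), Gpx2 (0.19) and 5730507C01Rik (0.20). Fgf5 read 6.47, 5.93 and 6.71 in repeats 1, 2 and 3, and Dnmt3b read 9.01, 8.44 and 9.20. The variance of Fgf5, Dnmt3b, Zbed3 and Chac1 did not pass the test (limma, adjusted p = 0.42, 0.16, 0.16 and 0.30). Their spread was therefore not shown to exceed that of genes at their level. Zbed3 and 5730507C01Rik passed the stricter cutoff on 2 arrays and Gpx2 on 1. Foxh1, also looked up afterwards, was in place 22 of 12825 for Lefty1 (distance 0.945) and in place 45 for Lefty2 (0.32). At 0.945 it was not close to Lefty1, from which a gene with no difference would lie at 1.41. With 3 arrays, likeness of pattern largely reflects which repeat was high or low.

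**Figure D3:**
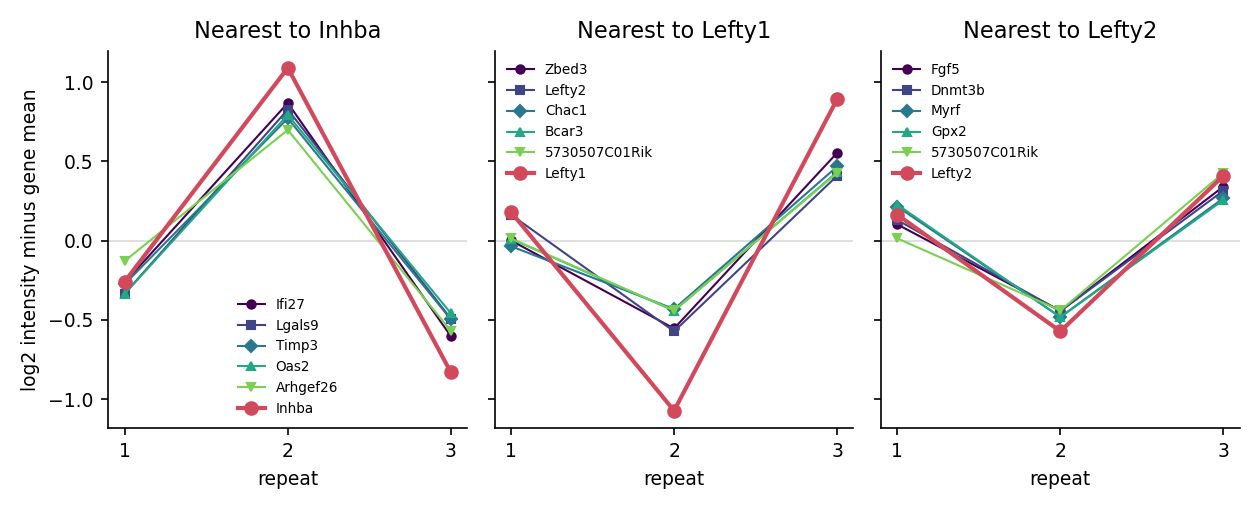
Log2 intensity minus the gene's mean (vertical axis) in the 3 repeats for Inhba, Lefty1 and Lefty2 (thick red) and the 5 genes nearest to each (thin lines); lines join the values of 1 gene, and the repeats have no order. As they were picked for likeness, the genes nearest to Inhba were highest in repeat 2 and those nearest to Lefty1 and Lefty2 lowest there. Lefty1 spread more widely than any of its neighbours.

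The nearest measured genes along the chromosome, by RefSeq order in GRCm38.p6, were read beside the 7. Lefty2 and Lefty1 were each other's nearest measured gene on 1 side. On the outer sides, Sde2, next to Lefty2, read 9.49, 9.51 and 9.51 in repeats 1, 2 and 3, and Tmem63a, next to Lefty1, read 6.47, 6.30 and 6.71. Tmem63a thus had the order of repeats of the Lefty genes with a range of 0.40, and Sde2 did not. Gli3, on 1 side of Inhba, had a range of 0.021, and Sugct, on the other, was above background on 0 arrays. Dppa3, a pluripotency-associated gene beside Gdf3, read 5.81, 6.21 and 6.12, lowest in repeat 1, where Gdf3 was not. Of the neighbours of Nodal, Pald1 and Eif4ebp2 had ranges of 0.037 and 0.14. For Inhbb, Gli2 and Ralb had ranges of 0.45 and 0.23, and for Cer1, Zdhhc21 and Frem1 had ranges of 0.28 and 0.18. Apobec1, on the other side of Gdf3, had a range of 0.41.

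Markers of fibroblasts, a cell type in which Inhba can be expressed and which is used as feeder for ES cells, were read beside these genes. Of 16 measured markers 13 were above background on all 3 arrays, beside 67.3% of all genes. Of the 16, 12 (75.0%) were highest in repeat 2, against 36.9% of all genes above background. Repeat 2 exceeded the mean of the others by a median of 0.35 log2 units. As the list was chosen with earlier results of these data known, nothing is read from the 75.0%. The summed intensity of the markers was 5568 in repeat 1, 7031 in repeat 2 and 5770 in repeat 3. The markers with the highest values weigh most in this sum. These were Fn1, at 11.08, 11.18 and 11.09 in repeats 1, 2 and 3, and Vim, at 10.67, 10.95 and 10.76. The sum is therefore not read as an amount of fibroblasts. Acta2, smooth muscle actin, had the largest range, at 7.57, 9.11 and 8.07, and was the 1 of 14 tested markers called by limma (adjusted p = 0.00832), a call lost without repeat 1 (adjusted p = 0.299), without repeat 2 (adjusted p = 0.189) and with a prior without a trend (adjusted p = 0.194). Of the 14, 6 had an unadjusted p under 0.05. The collagens Col1a1, Col1a2 and Col3a1 were highest in repeat 2, at 9.11, 8.52 and 7.46, by 0.61, 0.50 and 0.39 log2 units, whereas decorin, Dcn, read 8.06, 8.02 and 7.77. Lum and Fap were above background on 0 arrays, and S100a4 on 2. Of these, Fap is among the 12 markers highest in repeat 2. The lowest repeat was repeat 1 for 8 of the 16 markers and repeat 3, where Inhba was lowest, for 6. Their part in the values of Inhba was not tested.

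**Figure D4:**
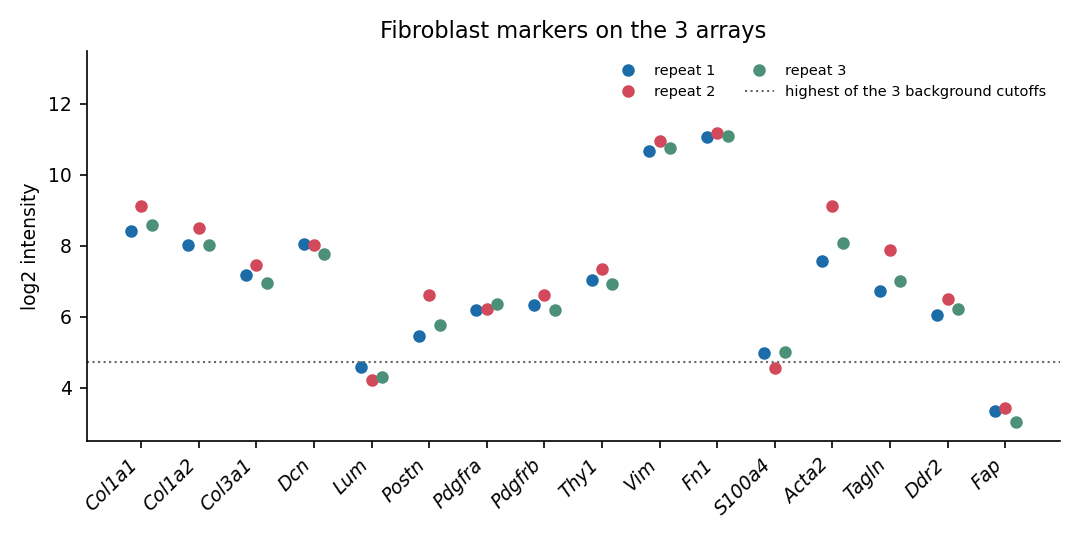
Log2 intensity (vertical axis) of the 16 measured fibroblast markers in repeats 1, 2 and 3 (coloured points), with the highest of the 3 background cutoffs (dotted line). Acta2, Tagln and Postn spanned more than 1 log2 unit and were highest in repeat 2, and Lum and Fap lay below the line.

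Markers of primitive and visceral endoderm, the tissue in which Cer1 and Lefty1 are expressed in the embryo, were read as well. Of 14 markers 10 were above background on all 3 arrays, but only Pdgfra, which the fibroblast list also holds, passed the stricter cutoff on all 3. Gata6 and Gata4 read 5.93 ± 0.17 and 6.06 ± 0.11, and Sox7 read 5.07 ± 0.082 (SD, n = 3). Sox17, Dab2, Afp and Ttr were above background on 0 arrays. The summed intensity was 578.4, 588.8 and 629.9 in repeats 1, 2 and 3, and repeat 2 differed from the mean of the others by a median of -0.048 log2 units. Cubn had the largest range, 0.93, with 5.20, 5.43 and 6.13, so it was lowest in repeat 1 where the Lefty genes were lowest in repeat 2. The limma test called 0 of the 10 tested markers, and 1 had an unadjusted p under 0.05.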

How the data were processed

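Total RNA from 3 repeats of 1 cell line was read on the Mouse Gene 1.0 ST array. The authors deposited 1 linear intensity per probe set and array; the submitters' processing notes name GCOS 1.4, while how background was corrected, arrays normalized and probes summarised is not given in the sources used here. Median intensities were 47.8, 46.7 and 46.8, and no further normalization was applied. Of 26730 probe sets, 20764 had 1 gene symbol in the platform annotation, 1419 had several and 4547 none listed, and probe sets without exactly 1 symbol were not used. Log2 values were averaged per gene (930 genes had several probe sets). The variance of an intercept-only fit was set against a trended, robust prior variance with limma 3.58.1 in R 4.3.3 (F distribution with 2 and 9.85 degrees of freedom), after a trial on simulated data; Python 3.11.15 did the rest. The genes, lists and tests were chosen with earlier results of these data known. Named in each list were the first 4 measured genes, the gene with the largest range and, where 5 or fewer, those not above background on all arrays; the 5 most alike genes were named for genes spanning more than 1 log2 unit, and the nearest measured gene on either side for each of the 7. Other genes were named after their values were seen. Alternatives were other cutoffs, normalizations, offsets, probe set rules and priors, and leaving out each repeat.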

Additional observations from a re-analysis of the deposited data

How the results depend on the processing

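Of 99 values recomputed under alternatives, 88 were counted as the same, 10 as moved and 1 as reversed. Values counted as the same could still change in size. For instance, 38 pathway genes were above background, but 27 at the stricter cutoff from other silent families. The count of the 7 genes spanning more than 1 log2 unit ranged from 0 (without repeat 2) to 2 when 1 repeat was left out, and the count over all genes from 0 (without repeat 2) to 32. The latter was 21 of 36 with 16 added to each intensity, which shrinks differences at low intensity. Genes varying beyond the trend, 22 in all, numbered 13 after quantile normalization, 39 after centring on the array median, 10 without the robust prior, 1 without the trend, and 0 to 34 when 1 repeat was left out (0 without repeat 1, 34 without repeat 2, 11 without repeat 3); the cause was not tested. The other pathway genes numbered 0 under each of these. The difference of repeat 2 turned sign only for Cer1, from -0.21 without repeat 3 to 0.00051 log2 units without repeat 1; leaving out repeats was added for these differences after seeing the data. Quantile normalization, centring and the offset left that of Inhba between 1.49 and 1.65 and that of Lefty1 between -1.61 and -1.34. At the 99th percentile of the receptor genes 6 of the 7, all but Cer1, were above background. The share of all genes at that cutoff was not computed, so nothing is read from this count. No paired analysis was possible because the labels give 1 group.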
